A study of Homo sapiens with 8 samples.

Results

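Mature microRNAs (miRNAs) were compared between HCT116 cells rescued with DICER carrying the substitution R1003Q and HCT116 cells rescued with DICER carrying R1855L. HCT116 is a human colorectal carcinoma cell line. The comparison takes 2 libraries labelled as R1003Q rescue and 2 labelled as R1855L rescue, so 4 of the 8 libraries of the series, chosen by their labels and not by any measured value. The other 4 libraries, 2 with R821H and 2 with wild-type (WT) DICER, entered the same statistical model and are given beside the members for context. All groups share the cell line, the TRIzol extraction of total RNA and an input of 100 µg, and all libraries were made with AQ-seq, a small-RNA protocol designed to reduce ligation bias. The labels do not say what became of the cells' own DICER, how strongly the rescue proteins were expressed, whether a line was 1 clone or a pool, or whether the replicates were separate cultures. The p-values below therefore rest on the variation among libraries that may be technical replicates, and a difference in miRNA level cannot be told apart from a difference in the amount of rescue protein.

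DICER is the RNase III enzyme that removes the loop of a precursor hairpin and leaves a short duplex of a 5p and a 3p strand. One of these strands is usually kept by an Argonaute protein, where its seed, the bases near its 5′ end, pairs with target messenger RNAs, and the other is mostly degraded. DICER holds the ends of the hairpin with its platform and PAZ domains, and its C-terminal double-stranded RNA-binding domain contacts the stem near the place of cutting. R1003Q changes a residue of the PAZ region and R1855L a residue of the C-terminal RNA-binding domain.

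The R1003Q libraries held 1143373 and 675934 reads assigned to miRNAs (replicates 1 and 2, the order used throughout) and the R1855L libraries 2241881 and 462805. Levels are given in CPM, which are counts scaled to a common library total, here after TMM, which adjusts for composition. A count of 3 reads, a mark of low levels that did not replace the 0 of absent names, corresponded to 2.68 and 4.27 CPM in R1003Q. In R1855L it corresponded to 1.48 and 5.52 CPM. Both R1855L libraries stand apart from the R1003Q libraries, in different ways. In the deep one miR-21-5p took 45.2% of its reads, against 29.2% in the other R1855L library and 33.4% and 33.3% in the R1003Q libraries. In the shallow one, names that overlap abundant noncoding RNAs such as transfer RNA summed to 60077 CPM of the library total, against 16971 in the deep one and 29194 and 30164 in R1003Q. The family of miR-10, miR-99, miR-100 and miR-125 summed there to 79683 CPM, against 39813 in the deep one and 41892 and 43596 in R1003Q. The median absolute log2 difference between replicates was 0.62 in R1855L and 0.25 in R1003Q. Of 1818 names read in any of the 8 libraries, 625 passed the filter on low counts and were tested, and these held at least 99.8% of the reads of each library. Of markers of other cell types, miR-155-5p, a lymphoid miRNA, had 0 reads in all 4 libraries compared, and miR-206, a muscle miRNA, had 1 read in a single R1855L library. Other markers were read in every library: miR-145-5p, a smooth muscle and fibroblast miRNA, had 653 and 454 reads in R1003Q and 1349 and 412 in R1855L, and miR-122-5p, the main liver miRNA, had 107 and 77 against 240 and 39. miR-9-5p, a neuronal miRNA, had 833 and 426 reads in R1003Q and 2411 and 246 in R1855L. The 5 fibroblast markers summed to 651 and 737 CPM of the library total in R1003Q and 645 and 970 in R1855L, and the 6 markers of muscle, liver and neurons to 835 and 749 against 1194 and 629. The 8 blood markers summed to 649 and 673 CPM of the library total in R1003Q and 755 and 1095 in R1855L, both R1855L libraries being higher, and the 5 tested ones had a median log2 fold change of -0.89. The part of these reads, and of the noncoding RNA names, in the results was not tested. Of the epithelial markers, miR-31-5p was abundant in every library, while miR-200c-3p had only 26 and 18 reads in R1003Q and 98 and 13 in R1855L.

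The sequences below are the mature strands with the largest differences among miRNAs that passed the test described next and averaged 50 CPM or more in the 4 libraries. They are written 5′ to 3′ from RefSeq (GRCh38.p14), and the capitals mark the seed, bases 2 to 8.
miR-484: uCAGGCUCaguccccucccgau
miR-331-3p: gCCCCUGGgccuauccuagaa
miR-615-3p: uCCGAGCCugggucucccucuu
miR-3200-3p: cACCUUGCgcuacucaggucug
miR-1307-3p: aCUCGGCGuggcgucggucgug
miR-222-3p: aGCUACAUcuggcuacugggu
miR-203b-3p: uUGAACUGuuaagaaccacugga
miR-222-5p: cUCAGUAGccaguguagauccu
miR-140-3p: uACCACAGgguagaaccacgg
miR-27b-3p: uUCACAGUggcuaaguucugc
miR-203a-3p: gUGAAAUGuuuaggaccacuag
No 2 of these strands have the same seed, and no seed was shared by 2 of the called miRNAs matched to RefSeq. The named miRNA miR-151a-3p also belongs to this group and is given by its values only.

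A set of 23 of the 625 tested miRNAs differed between the mutants (3.68%), all of them higher in R1003Q and 0 lower, by edgeR's quasi-likelihood test with a Benjamini-Hochberg adjusted p under 0.05. They ranged from miR-484 at 41.0-fold to miR-185-5p at 2.00-fold. Of the 23, 17 are 3p strands, 3 are 5p strands and 3 carry no strand suffix. At an unadjusted p under 0.05 there were 92 miRNAs, 70 higher and 22 lower in R1003Q, and DESeq2 called 40 (6.4%), 38 higher and 2 lower. All 23 lay higher in both R1003Q libraries than in either R1855L library, which was also true of 152 of all tested miRNAs (24.3%). The opposite order, with both R1003Q libraries lower, held for 129 (20.6%). The median log2 fold change of all tested miRNAs was -0.09. Leaving out 1 library changed the number of calls to 4 (0.586%) without R1855L replicate 1, 2 (0.293%) without R1003Q replicate 1 and 6 (0.89%) without R1003Q replicate 2, although each of the 23 kept its sign in every one of these fits. A term for library depth (2 classes, the R1855L library with 2241881 reads being deep and the other 3 shallow) raised the number to 93 (14.9%), of which 61 were higher and 32 lower, with all 23 among them.

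**Figure D1:**
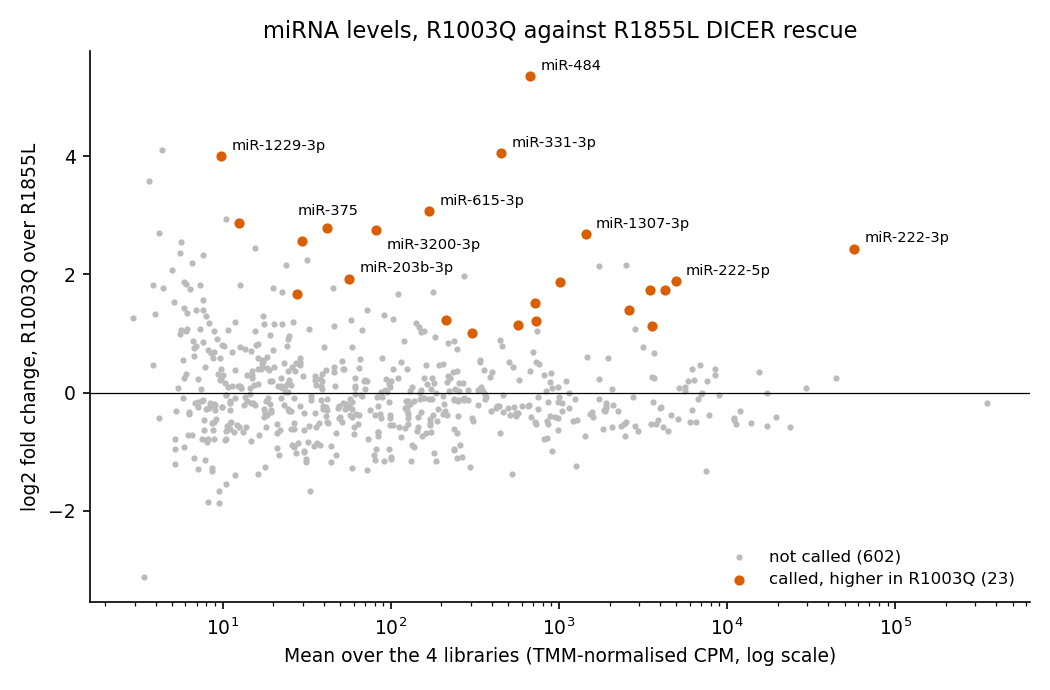
Each point is 1 of the 625 tested miRNAs, with its mean over the 4 libraries (TMM-normalised CPM, log axis) on the horizontal axis and its log2 fold change, R1003Q over R1855L, on the vertical axis. The 23 called miRNAs (orange) all lie above 0, from 1.00 to 5.36, and span mean levels from under 10 CPM to miR-222-3p.

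miR-484 differed most among the called miRNAs. It is processed from a hairpin whose 5′ end carries the cap of its transcript, so that the nuclear enzyme Drosha is not needed, and it lies in an exon of NDE1 (chr16:15643294-15643372, GRCh38, plus strand). The R1003Q libraries held 1259.7 and 1375 CPM and the R1855L libraries 20.7 and 47.8 CPM, which are 1409 and 967 reads against 42 and 26. The groups were far apart, with means of 1317 ± 81.4 CPM and 34.2 ± 19.2 CPM (SD, n = 2 libraries each). The log2 fold change was 5.36 (standard error, SE, 0.44, edgeR adjusted p = 0.00157). In WT the level was 1175 and 1039 CPM and in R821H 1049 and 1296 CPM, so the R1855L libraries were the low ones among all 8.

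miR-331-3p had the next largest fold among miRNAs above 50 CPM. It was at 922 and 796 CPM in R1003Q and 64.9 and 34.96 CPM in R1855L, a log2 fold change of 4.05 (SE 0.35, edgeR adjusted p = 0.00157). The other strand of the same hairpin, miR-331-5p, was at 249 and 277 CPM in R1003Q and 300.5 and 259 CPM in R1855L, and its ranges overlapped (log2 fold change -0.09, SE 0.22). Both miR-484 and miR-331-3p were called in all 13 alternative fits, while the other called miRNAs passed in 4 to 12.

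miR-615-3p comes from a hairpin in an intron of HOXC4 and HOXC5 (chr12:54033950-54034045, plus strand). Its levels were 342 and 262 CPM in R1003Q and 22.6 and 53.4 CPM in R1855L, and its log2 fold change was 3.08 (SE 0.50, edgeR adjusted p = 0.0156). Its partner strand miR-615-5p had a log2 fold change of 2.20 with an SE of 0.93 and was not called. miR-375, best known for its role in pancreatic islet cells and other secretory cells, was at 84.9 and 61.1 CPM in R1003Q and 11.3 and 9.20 CPM in R1855L (6.91-fold, edgeR adjusted p = 0.00688). With a mean of under 50 CPM it falls outside the rule for naming, and it was chosen after its values were seen.

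miR-3200-3p, encoded in an intron of OSBP2 (chr22:30731557-30731641, plus strand), was at 172 and 112 CPM in R1003Q and 20.7 and 22.1 CPM in R1855L. This is 6.69-fold (log2 2.74, SE 0.35, edgeR adjusted p = 0.00688). Its 5p strand gave no clear value, with a log2 fold change of -0.14 and an SE of 0.83. miR-1307-3p, from a hairpin in an exon of ATP5MD (chr10:103394253-103394401, minus strand), was at 2583 and 2396 CPM in R1003Q and 312 and 466 CPM in R1855L. Its log2 fold change was 2.68 (SE 0.30, edgeR adjusted p = 0.00479). The 5p strand of that hairpin was at 4631 and 3556 CPM in R1003Q and 522 and 1314 CPM in R1855L, also without overlap, but with a wider spread in R1855L (log2 2.16, SE 0.55, edgeR adjusted p = 0.0853, DESeq2 adjusted p = 0.00263).

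The most abundant miRNA called was miR-222-3p, which represses p27, a brake on the cell cycle, and is made with miR-221 from a shared transcript, MIR222HG. It was at 104483 and 87923 CPM in R1003Q, against 17068 and 18483 CPM in R1855L. The means were 96203 ± 11709.9 CPM and 17776 ± 1000.2 CPM (SD, n = 2), and the log2 fold change was 2.44 (SE 0.26, edgeR adjusted p = 0.00479). WT held 81883 and 76740.0 CPM and R821H 87693 and 112980.4 CPM. The other strand, miR-222-5p, was at 7856 and 7712 CPM in R1003Q and 1593 and 2628 CPM in R1855L (log2 1.88, SE 0.31, edgeR adjusted p = 0.0156). miR-222 was the 1 hairpin with both strands called.

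Next by fold came 3p strands at intermediate to high levels. miR-203b-3p was at 82.3 and 96.7 CPM in R1003Q and 25.6 and 20.2 CPM in R1855L (log2 1.93, SE 0.28, edgeR adjusted p = 0.0101). miR-203a-3p, which restrains proliferation in the epidermis, was at 983 and 1157 CPM in R1003Q and 359 and 394 CPM in R1855L (log2 1.51, SE 0.22, edgeR adjusted p = 0.0112). The hairpins of these strands overlap on opposite strands of chromosome 14 (chr14:104117405-104117514, plus, and chr14:104117418-104117503, minus), so reads from them differ by sequence and strand and not by place. Neither partner was called: the log2 fold change was -1.02 for miR-203b-5p (SE 0.57) and -0.68 for miR-203a-5p (SE 0.59).

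miR-140-3p, from an intron of WWP2 (chr16:69933081-69933180, plus strand) and known from cartilage, was at 1730.0 and 1469 CPM in R1003Q and 427 and 445 CPM in R1855L. Its log2 fold change was 1.88 (SE 0.25, edgeR adjusted p = 0.00688), while the 5p strand, at 257 and 219 CPM against 157 and 184 CPM, gave 0.48 (SE 0.22) and was not called. miR-151a-3p was at 5349 and 5312 CPM in R1003Q and 1502 and 1685 CPM in R1855L (log2 1.74, SE 0.25, edgeR adjusted p = 0.0101), and its 5p strand gave 0.40 (SE 0.38). miR-27b-3p, from the miR-23b cluster on chromosome 9, was at 6787 and 6368 CPM in R1003Q and 1924 and 2017 CPM in R1855L (log2 1.74, SE 0.23, edgeR adjusted p = 0.00688). In each of these hairpins the R1855L libraries lay close together on the 3p strand and were below the R1003Q libraries.

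The remaining called miRNAs, named here after their values were seen unless they belong to a list described further on, had smaller folds or few reads. miR-25-3p, from the miR-106b cluster in an intron of MCM7, was at 3954 and 3629.8 CPM in R1003Q and 1424 and 1468 CPM in R1855L (2.62-fold, edgeR adjusted p = 0.0156). miR-23b-3p was at 4923 and 4945 CPM in R1003Q and 2299 and 2215 CPM in R1855L (2.19-fold, edgeR adjusted p = 0.0328). miR-128-3p, abundant in brain and encoded at 2 loci, was at 1139 and 893 CPM in R1003Q and 456 and 419.5 CPM in R1855L (2.32-fold, edgeR adjusted p = 0.0330). These 3 had both R1855L libraries within a narrow range below the R1003Q libraries.

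miR-455-3p, from an intron of the collagen gene COL27A1, was at 303 and 289 CPM in R1003Q and 114 and 139.8 CPM in R1855L (2.34-fold), and its edgeR adjusted p of 0.04996 was just inside the threshold. The 5p strands miR-345-5p and miR-185-5p differed by 2.22-fold and 2.00-fold. miR-345-5p was at 810.0 and 756 CPM in R1003Q and 329 and 379 CPM in R1855L, and miR-185-5p at 409 and 404 CPM and 204 and 202 CPM. The replicates of both lay close together, and miR-345-5p, miR-185-5p and miR-23b-3p passed in 5 of the 13 alternative fits.

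At low counts, miR-1229-3p had 23 and 12 reads in R1003Q and 3 and 0 in R1855L. The summed counts of 35 against 3 reads, each over the group's TMM-scaled library totals, give a ratio of 16.5 with a 95% exact interval of 5.20 to 83.9, which covers counting error only, since no molecular identifiers are named for these libraries. miR-643, from an intron of ZNF766, had 26 and 15 reads in R1003Q and 7 and 1 in R1855L, a ratio of 7.25 (3.36 to 17.9). miR-766-3p had 54 and 35 reads in R1003Q and 10 and 8 in R1855L, a ratio of 6.99 (4.18 to 12.3). miR-141-3p, of the miR-200 family that represses the ZEB factors of the epithelial to mesenchymal transition, had 49 and 29 reads in R1003Q and 30 and 6 in R1855L (3.17-fold, edgeR adjusted p = 0.0293), and it passed in 4 of the 12 alternative fits that tested it.

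**Figure D2:**
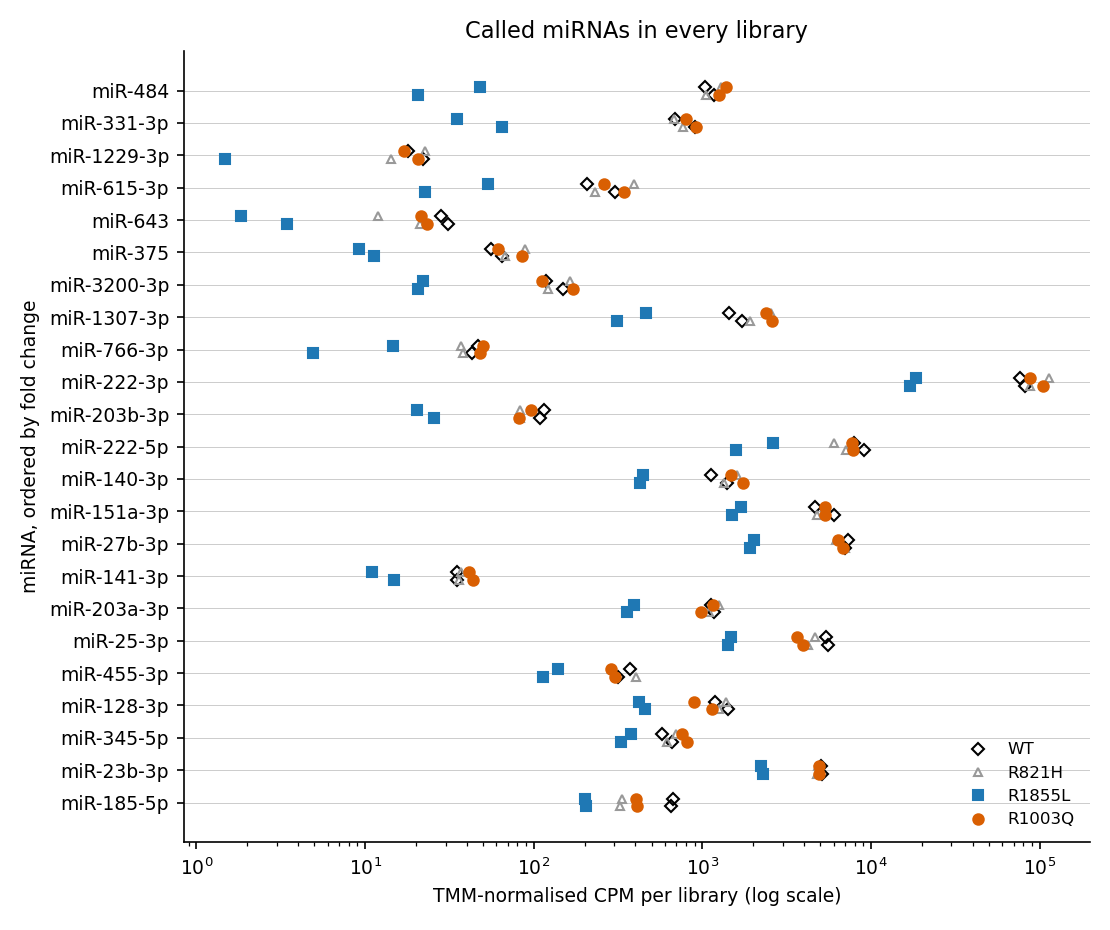
Each row is 1 of the 23 called miRNAs, ordered by fold change, and each point is 1 library at its TMM-normalised CPM (log axis, so that the R1855L library with 0 reads of miR-1229-3p is not drawn). The R1855L libraries (blue squares) lie left of the R1003Q libraries (orange circles) in every row, and the WT (open diamonds) and R821H (open triangles) libraries lie nearer to R1003Q than to R1855L for miR-484, at 1039 to 1296 CPM.

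Set beside the other groups of the series, the R1003Q libraries gave 0 calls against R821H (10 miRNAs at an unadjusted p under 0.05, and 0 calls by DESeq2) and 0 calls against WT (31 at an unadjusted p under 0.05), by edgeR with the same adjustment. For the 23 miRNAs the log2 fold change of R1003Q over R821H ranged from -0.38 to 0.38 and that over WT from -0.70 to 0.66. Both R1003Q libraries were below both WT libraries for 9 of the 23 and above both for 7. The shares of all tested miRNAs with these orders were not counted, so these counts have no background to be read against. miR-25-3p was among the lower ones, at 3954 and 3629.8 CPM in R1003Q and 5539 and 5386 CPM in WT, and miR-185-5p as well, at 409 and 404 CPM against 648 and 669.5 CPM. miR-1307-3p was among the higher ones, at 2583 and 2396 CPM against 1708 and 1443 CPM. All of these differences from WT missed the threshold (smallest adjusted p 0.857 by edgeR), which does not show that the levels are alike. Both WT libraries were above both R1855L libraries for all 23, which were selected as lower in these same R1855L libraries. How many of all tested miRNAs had that order was not counted, so this adds no separate evidence.

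Some called miRNAs have a relative with the same seed, which would pair with largely the same targets. The relatives were picked after the values were seen, and the sequences are shown because members with a shared seed had different folds.
miR-222-3p: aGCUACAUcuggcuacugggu
miR-221-3p: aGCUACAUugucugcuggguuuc
miR-27b-3p: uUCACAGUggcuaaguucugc
miR-27a-3p: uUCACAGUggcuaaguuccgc
miR-23b-3p: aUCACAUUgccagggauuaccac
miR-23a-3p: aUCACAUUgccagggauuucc
miR-25-3p: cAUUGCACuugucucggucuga
miR-92a-3p: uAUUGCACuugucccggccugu
miR-141-3p: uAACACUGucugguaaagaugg
miR-200a-3p: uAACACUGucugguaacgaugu
miR-221-3p was at 32512 and 27768 CPM in R1003Q and 26576 and 30269.9 CPM in R1855L, with overlapping groups (log2 0.08, SE 0.26). The ratio of miR-222-3p to miR-221-3p was 3.21 and 3.17 in R1003Q, 0.642 and 0.611 in R1855L and 2.28 and 2.47 in WT. In R1855L, therefore, miR-221-3p was the more abundant of the pair, and in R1003Q and WT miR-222-3p was.

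miR-27a-3p was at 17475 and 17255 CPM in R1003Q and 12909 and 21920.0 CPM in R1855L, so that its level overlapped between the groups (log2 0.00, SE 0.31). The ratio of miR-27b-3p to miR-27a-3p was 0.388 and 0.369 in R1003Q against 0.149 and 0.0920 in R1855L. miR-23a-3p, at 6779.7 and 6102 CPM and 7147 and 6729 CPM, gave a log2 fold change of -0.11 (SE 0.23), and the ratio of miR-23b-3p to it was 0.726 and 0.810 in R1003Q against 0.322 and 0.329 in R1855L. For miR-25-3p over miR-92a-3p the ratios were 0.439 and 0.373 in R1003Q, 0.137 and 0.0986 in R1855L and 0.625 and 0.703 in WT. For miR-141-3p over miR-200a-3p they were 0.0420 and 0.0443 in R1003Q against 0.0128 and 0.0103 in R1855L.

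Summed over the tested miRNAs of the seed that matched RefSeq, the groups differed less than the called member did. This follows from adding relatives that were not called, so the sums are given as levels only. The seed GCUACAU of miR-222-3p and miR-221-3p summed to 136995 and 115692 CPM in R1003Q and 43644 and 48753 CPM in R1855L, a ratio of means of 2.73. The seed UCACAGU of miR-27b-3p and miR-27a-3p summed to 24262 and 23623 CPM in R1003Q and 14833 and 23937 CPM in R1855L, which overlap (ratio of means 1.24). For the seed AUUGCAC, shared by miR-25-3p, miR-32-5p, miR-92a-3p and miR-92b-3p, the ratio of means was 0.916, and for AACACUG of miR-141-3p and miR-200a-3p it was 0.915. The seed UCACAUU of miR-23b-3p and miR-23a-3p summed to 11702 and 11047 CPM in R1003Q and 9446 and 8944 CPM in R1855L (ratio of means 1.24). In all of these seed groups except that of miR-222-3p the called member was not the most abundant one in R1003Q.

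**Figure D3:**
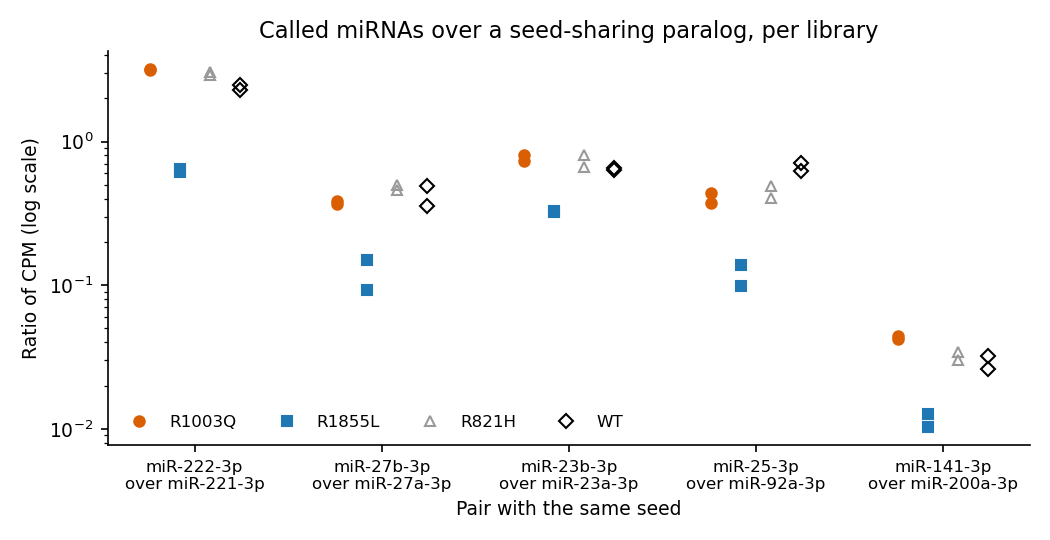
Each point is the ratio, in 1 library, of the CPM of a called miRNA to that of a relative with the same seed (log axis), for 5 pairs. Both R1855L libraries (blue squares) lie below both R1003Q libraries (orange circles) in all 5 pairs, by most for miR-222-3p over miR-221-3p, at 0.642 and 0.611 against 3.21 and 3.17. Each called miRNA had no overlap between groups and each relative was picked after its values were seen, so this order adds no evidence.

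Most of the called names were 3p strands. Of 243 tested 3p names 17 were called (6.996%), of 268 tested 5p names 3 (1.12%) and of 114 names with no suffix 3 (2.63%). The median log2 fold change was 0.05 for 3p names and -0.15 for 5p names. Of the 17 called 3p strands, 14 had a tested 5p partner, of which 1 was called (miR-222-5p) and 8 had a log2 fold change below 0. Among all 268 tested 5p names 101 were above 0. The partners' median log2 fold change of -0.10 was near the -0.15 of all 5p names. The difference between the shares called of 3p and 5p names was not tested. With the term for library depth, 45 of the 3p names (31 higher, 14 lower) and 25 of the 5p names (17 higher, 8 lower) were called. Among all 625 tested it was 93 (61 higher, 32 lower).

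The ratio of 5p to 3p reads of a hairpin within a library does not depend on how libraries are scaled. It was tested with limma in 174 hairpins with 80 or more reads of each strand, summed over the 8 libraries, on log2 of 5p over 3p reads with 0.5 added to each. The ratio differed between R1003Q and R1855L in 10 hairpins (5.75%) at an adjusted p under 0.05. In R1003Q 7 of them held relatively more 3p and 3 relatively more 5p. Against R821H, R1003Q gave 0 called ratios (2 at an unadjusted p under 0.05), and against WT also 0 (10 at an unadjusted p under 0.05), both by limma. Leaving out 1 library gave 3 calls (1.72%) without R1855L replicate 1, 6 (3.45%) without R1855L replicate 2, 2 (1.15%) without R1003Q replicate 1 and 1 (0.575%) without R1003Q replicate 2, and the depth term gave 27 (15.5%).

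The hairpins that follow show where the strands lie, with mature strands in capitals and written 5′ to 3′ from RefSeq (GRCh38.p14). MIR25 (chr7:100093560-100093643, minus strand, an intron of MCM7) and MIR27B (chr9:95085445-95085541, plus strand, an intron of C9orf3) changed toward 3p, while MIR139 (chr11:72615063-72615130, minus strand, an intron of PDE2A) and MIR92B (chr1:155195177-155195272, plus strand, an exon of the annotated gene AC234582.1) changed toward 5p.
MIR25: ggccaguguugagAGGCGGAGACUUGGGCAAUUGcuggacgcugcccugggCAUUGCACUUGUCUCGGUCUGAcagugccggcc
MIR27B: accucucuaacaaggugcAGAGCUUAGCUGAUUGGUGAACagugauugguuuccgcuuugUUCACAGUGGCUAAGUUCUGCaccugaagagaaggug
MIR139: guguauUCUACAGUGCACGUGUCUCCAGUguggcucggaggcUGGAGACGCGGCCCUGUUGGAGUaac
MIR92B: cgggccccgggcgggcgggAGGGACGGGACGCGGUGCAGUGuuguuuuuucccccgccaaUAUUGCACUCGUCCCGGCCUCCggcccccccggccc
In all 4 the first run of capitals is the 5p strand and the second is the 3p strand.

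miR-331 had the largest change. Its log2 ratio of 5p to 3p was -1.89 and -1.52 in R1003Q and 2.21 and 2.86 in R1855L, so the 3p strand led in R1003Q and the 5p strand in R1855L. In reads, the 5p strand had 278 and 195 in R1003Q and 611 and 141 in R1855L, and the 3p strand 1031 and 560 in R1003Q and 132 and 19 in R1855L. The change was -4.24 (SE 0.38, limma adjusted p = 0.000305). WT gave -1.94 and -1.40 and R821H -1.62 and -1.32. It was called in all 9 alternative fits of the ratios. The other called ratios were not: miR-25 passed in 7 of 9, miR-92b in 5, miR-203b and miR-361 in 4, and miR-27b, miR-139, miR-140 and miR-185 in 3. All of them kept their direction.

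miR-203b also changed its leading strand. Its log2 ratio was -1.98 and -2.57 in R1003Q and 0.80 and 0.43 in R1855L, a change of -2.89 (SE 0.58, limma adjusted p = 0.0303). Its 5p strand had 23 and 11 reads in R1003Q and 91 and 15 in R1855L, and its 3p strand 92 and 68 in R1003Q and 52 and 11 in R1855L. miR-6765, from an intron of JAG2, gave a change of -3.83 (SE 0.82, limma adjusted p = 0.0303) although its 3p strand had just 3 and 10 reads in R1003Q and 1 and 0 in R1855L, too few to place the ratio of a single library. Its change ranged from -4.94 to -1.70 over the 8 alternative fits that held it, and it passed in 2.

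In the other hairpins that moved toward 3p in R1003Q the leading strand did not change. For miR-25 the log2 ratio was -5.21 and -4.88 in R1003Q and -2.62 and -2.40 in R1855L (change -2.54, SE 0.36, limma adjusted p = 0.00541). Its 3p strand was called higher, and miR-25-5p was at 106 and 122 CPM in R1003Q and 232 and 278 CPM in R1855L, a log2 fold change of -1.15 that edgeR did not call (adjusted p = 0.0735) and DESeq2 did (adjusted p = 0.00743). For miR-27b the ratio was -4.82 and -4.87 in R1003Q against -3.20 and -3.35 in R1855L (change -1.57, SE 0.35, limma adjusted p = 0.0322), with miR-27b-5p at 241 and 218 CPM against 209 and 197 CPM. For miR-140 it was -2.75 and -2.74 against -1.44 and -1.27 (change -1.39, SE 0.32, limma adjusted p = 0.0322), and WT, at -1.996 and -1.65, lay between them. For miR-361, in which the 5p strand leads, the ratio was 2.27 and 2.56 against 4.72 and 3.80 (change -1.85, SE 0.39, limma adjusted p = 0.0303).

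Toward 5p in R1003Q moved miR-92b, miR-139 and miR-185. miR-92b, led by its 3p strand in every library, had a log2 ratio of -3.22 and -3.27 in R1003Q and -4.97 and -5.64 in R1855L (change 2.06, SE 0.36, limma adjusted p = 0.0176). The WT value of -4.42 and -4.54 lay between these groups. Its strands had log2 fold changes of opposite sign, miR-92b-5p one of 1.13 (SE 0.35) and miR-92b-3p one of -0.99 (SE 0.30), and neither was called alone.

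miR-139 had a log2 ratio of 3.66 and 4.04 in R1003Q and 2.26 and 1.85 in R1855L (change 1.80, SE 0.37, limma adjusted p = 0.0303), and WT was at 3.89 and 3.85. Its 3p strand was at 44.7 and 37.0 CPM in R1003Q and 75.7 and 131 CPM in R1855L, a log2 fold change of -1.31 (SE 0.36) that DESeq2 called (adjusted p = 0.0446) and edgeR did not (adjusted p = 0.106). miR-185 had a log2 ratio of 2.68 and 2.68 in R1003Q, 1.26 and 0.67 in R1855L and 3.66 and 4.06 in WT (change between the mutants 1.71, SE 0.39, limma adjusted p = 0.0322). Here the R1003Q libraries lay between R1855L and WT.

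**Figure D4:**
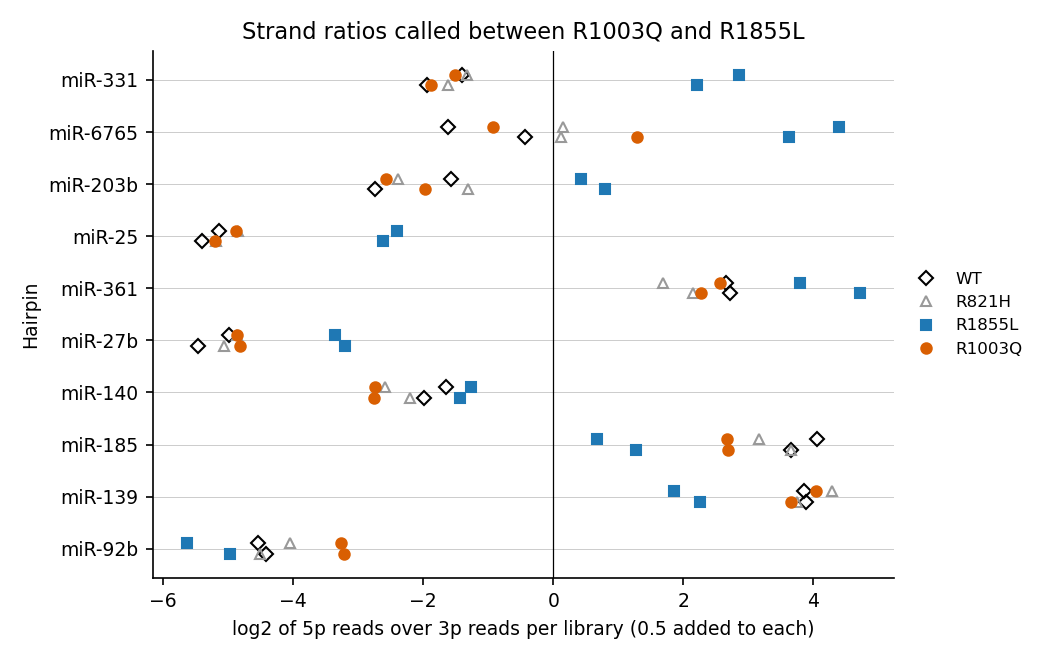
Each row is 1 of the 10 hairpins whose strand ratio was called, and each point is log2 of 5p over 3p reads in 1 library, with 0.5 added to each count and the vertical line at equal reads. The R1855L libraries (blue squares) lie to the right of R1003Q (orange circles) in 7 rows, most of all for miR-331, and to the left in 3, miR-185, miR-139 and miR-92b.

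Lists of related miRNAs were read against the background of 3.68% called and a median of -0.09, with no test of a list. Of all 625 tested miRNAs, 283 had a log2 fold change above 0, which is the background for the counts above 0 below. The list of capped hairpins was made by name from miR-484 and the miR-320 family, and no cap was measured. In it 1 of 5 tested members was called (miR-484), all 5 had a log2 fold change above 0 and the median was 1.76. miR-320a, the most abundant of them, was at 3643 and 3991 CPM in R1003Q and 2287 and 1345 CPM in R1855L (log2 1.07, SE 0.38, edgeR adjusted p = 0.236). The miR-320 members differ little in sequence and may share reads, and counts of miR-320d were fractional (6.5 and 10.5 reads in R1855L). Mirtrons are hairpins made by splicing of short introns, which also bypass Drosha. The mirtron list was made by name, and whether each member is processed in this way was not measured. In it 1 of 11 was called (miR-1229-3p), 9 were above 0 and the median was 1.23. The most abundant mirtron strand, miR-877-5p, was at 177 and 229 CPM in R1003Q and 103 and 95.7 CPM in R1855L (log2 1.03, SE 0.25, edgeR adjusted p = 0.0738). With the depth term, 5 of 5 members of the capped hairpin list and 4 of 11 of the mirtron list were called higher in R1003Q. Of all 625 tested, 61 were.

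Several clustered families had some members called and others not. In the list of miR-221 and miR-222 strands 2 of 4 were called, both strands of miR-222, and the median was 0.98, while miR-221-5p, at 2959 and 5561 CPM in R1003Q and 12679 and 8758 CPM in R1855L, had a log2 fold change of -1.33 (SE 0.60). In the miR-23/27/24 list 2 of 5 were called, miR-27b-3p and miR-23b-3p, and miR-24-3p, which both of its clusters encode, was at 18126 and 16333 CPM against 11734 and 15428 CPM (log2 0.34, SE 0.27). In the miR-200 family 1 of 5 was called (miR-141-3p), with a median of -0.17. In the miR-17-92 cluster and its paralogs, a growth-promoting group, 1 of 11 was called (miR-25-3p), 3 were above 0 and the median was -0.37.

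In 8 further lists no member was called by edgeR. The let-7 family, which promotes differentiation, had 2 of 9 members above 0 and a median of -0.44. Its most abundant member let-7a-5p was at 4047 and 4612 CPM in R1003Q and 9157 and 2572 CPM in R1855L, so that the R1855L libraries lay on both sides of R1003Q. With the depth term let-7e-5p (log2 1.69) and let-7f-5p (log2 1.00) were called higher in R1003Q, and from the other families of this group so were miR-99b-5p (1.80), miR-34a-5p (0.92) and miR-29b-3p (0.89), while miR-100-5p (-0.75) was called lower. The median was -0.49 in miR-15/16 (1 of 7 above 0), -0.04 in miR-30 (1 of 5), 0.30 in miR-29 (3 of 3), -0.41 in the family of miR-10, miR-99, miR-100 and miR-125 (1 of 7) and 0.24 in the p53-induced miRNAs (3 of 5). The single member above 0 of that family was miR-99b-5p, at 2783 and 2817 CPM in R1003Q and 373 and 907 CPM in R1855L, named after its values were seen (log2 2.14, SE 0.49, edgeR adjusted p = 0.0682, DESeq2 adjusted p = 0.00102). Names that overlap small nucleolar RNAs had 0 of 10 above 0 and a median of -0.74, and names that overlap other abundant noncoding RNAs had 4 of 12 above 0 and a median of -0.26. With the depth term 2 of the 10 and 3 of the 12 were called lower in R1003Q, and 1 of the 12 higher. Of all 625 tested, 32 were called lower and 61 higher with that term.

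**Figure D5:**
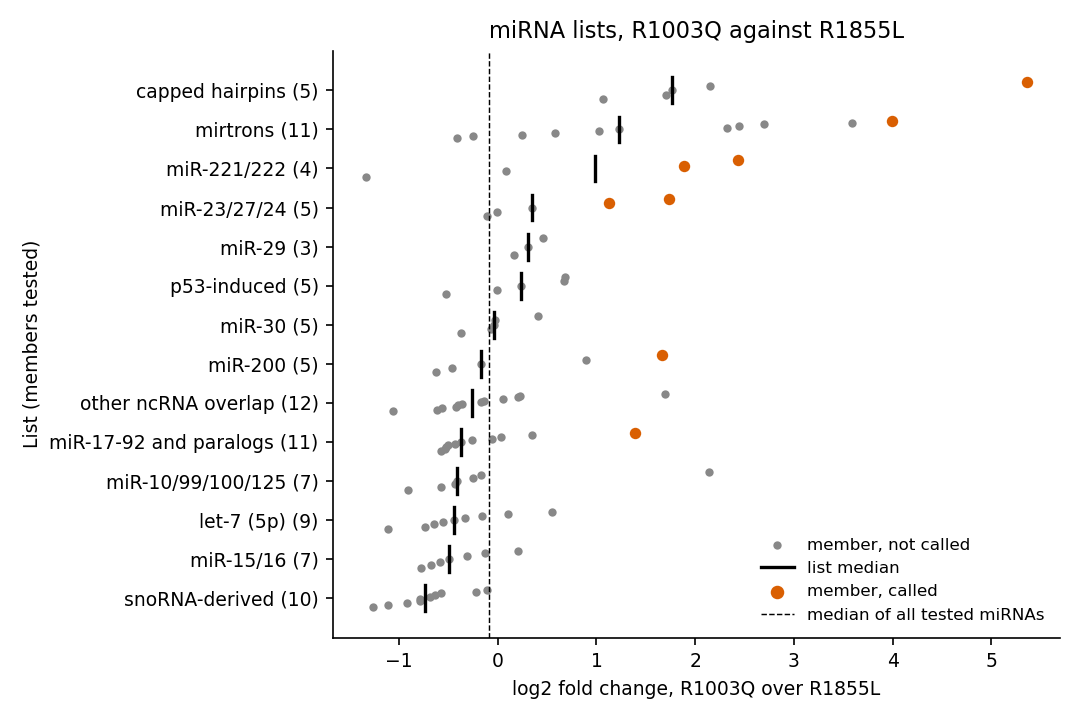
Each row is a list of related miRNAs with the number of tested members, each point a member's log2 fold change, R1003Q over R1855L, and the black bar the list's median. The dashed line is the median of all tested miRNAs, -0.09, and called members (orange) lie in the rows of capped hairpins, mirtrons, miR-221 and miR-222, miR-23/27/24, miR-200 and miR-17-92.

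The most abundant miRNAs other than miR-222-3p were not called. miR-21-5p, the leading miRNA of all 4 libraries and widely raised in carcinomas, was at 340950.2 and 320204 CPM in R1003Q and 497861 and 248462 CPM in R1855L (log2 -0.17, SE 0.41). The R1855L libraries differed from each other by more than the group means did. miR-31-5p was at 54025 and 42835 CPM in R1003Q and 45915 and 35326 CPM in R1855L (log2 0.25, SE 0.26). miR-100-5p was at 19191 and 19072 CPM against 20592 and 36401 CPM (log2 -0.57, SE 0.33) and miR-10a-5p at 16829 and 16640.3 CPM against 18709.7 and 25893 CPM (log2 -0.41, SE 0.25). In both of these the R1003Q libraries lay below both R1855L libraries. miR-1260b, a name that overlaps transfer RNA sequence, was at 14534 and 13426 CPM and 10532 and 30754 CPM, which overlap, as does miR-4521 at 8753 and 14135 CPM and 19873 and 12805 CPM.

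In a model with the group and the depth class, 228 of the 625 tested miRNAs differed between deep and shallow libraries, and 2 of the 23 called miRNAs did. For the 23 the median log2 level in deep over shallow libraries was -0.13, with a range from -0.77 to 0.23. The R1855L group holds 1 deep and 1 shallow library, so a miRNA that follows depth varies widely between them and is less likely to be called. These counts are therefore not read as evidence on depth, whose part in the calls was not tested.

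First bases and loop lengths of called strands are given beside those of tested strands. By name, 542 of the 625 tested and 20 of the 23 called miRNAs matched RefSeq. Of the 16 called 3p strands with a sequence 6 began with U, 4 with A, 3 with C and 3 with G, against 34.3% U, 25.6% A, 30.3% C and 9.84% G among 254 tested 3p strands. Here names with no suffix were given an arm by their place in the RefSeq hairpin. The number of bases between the annotated 5p and 3p strands had a median of 17 over 14 called 3p hairpins (range 12 to 22) and of 16 over 199 tested ones. The called hairpins looked up lay in introns of protein-coding genes (miR-23b, miR-25, miR-27b, miR-128, miR-140, miR-185, miR-455, miR-615, miR-643, miR-1229 and miR-3200), in introns of noncoding host genes (miR-222 and miR-141), in exons (miR-484 and miR-1307) and between genes (miR-203a, miR-203b, miR-331 and miR-345), by GENCODE release 29. These are descriptions, with no test.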

How the data were processed

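The authors deposited, per library, a table of estimated counts, reads per mature miRNA name listed from 1 read upward, with fractions for 19 to 33 names per library. The submitters' processing notes name cutadapt, BWA, bedtools, hg38 and mm10, with no versions or roles. The annotation release is not given in the sources used here. Near-identical miRNAs may share reads.

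Absent names were set to 0 and counts rounded. All 8 libraries entered 1 edgeR 4.0.16 quasi-likelihood fit (R 4.3.3, TMM, filterByExpr, robust), with the contrast of R1003Q and R1855L and Benjamini-Hochberg adjustment over 625 names. Levels are CPM scaled by TMM, and SEs derive from the fold change and the F statistic. Strand ratios (174 hairpins) were tested with limma 3.58.1. DESeq2 1.42.0, other scalings, filters, depth terms, a replicate block and left-out libraries were alternatives. The scripts were tested on simulated data. Library totals ran from 462805 to 4269231 reads, and at these depths a difference in miRNAs of a few reads was not detectable. Mature and hairpin sequences came from RefSeq and positions from GENCODE 29. Figures were drawn with matplotlib 3.10.9.

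Named miRNAs were called ones with a mean of at least 50 CPM and no overlap between groups (12 largest log2 fold changes per direction), the other strand of each, the 10 most abundant, up to 6 strand ratios per direction, and the called and most abundant members of lists. Members and lists were chosen with earlier results of these data known.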

Additional observations from a re-analysis of the deposited data

How the results depend on the processing

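The 23 miRNAs called between R1003Q and R1855L kept their direction in every alternative that tested them, but the number called varied. It was 40 with DESeq2, 11 with library totals only, 13 with only the 4 libraries compared, 93 with the depth class term and 81 with log2 library total as a covariate. It was 23 with median-ratio size factors, 32 of 1818 names without a filter and 24 of 338 with a mean of at least 50 CPM. Without a filter 19 of the 23 stayed called. With a mean of at least 50 CPM 19 of the 23 were tested and all 19 stayed called. Called strand ratios numbered 10 in the reported fit, 4 with only the 4 libraries compared, 27 with the depth class term, 9 with a pseudocount of 5 and 13 of 110 with at least 400 reads per strand. Leaving out 1 library gave 2 to 16 called miRNAs and 1 to 6 called ratios, with the lone library of a group assumed to vary like the other groups. These fits also held fewer libraries, and the cause of the change in number was not tested. R1003Q against R821H gave 0 calls in each alternative run.

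The replicate numbers did not pair the R1003Q and R1855L libraries, whose differences between replicates correlated at 0.02 across miRNAs. Among the other pairs of groups the correlation was 0.57 for R1855L with R821H, -0.70 for WT with R1855L, -0.68 for WT with R821H, 0.09 for WT with R1003Q and -0.12 for R821H with R1003Q. With the replicate block 13 miRNAs and 2 strand ratios were called.

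Changes of sign occurred only among miRNAs that were not called. Without a filter miR-27a-3p had a log2 fold change of 0.012, with a mean of at least 50 CPM 0.049 (miR-30b-5p 0.017), with only the 4 libraries 0.029 and with the replicate block 0.0047. With the depth class term the values were 1.02 for miR-3200-5p, 0.082 for miR-203a-5p, 0.28 for miR-21-5p, -0.051 for miR-221-3p, 0.53 for let-7a-5p, 0.21 for miR-16-5p and 0.28 for miR-9-5p, and with the log2 total 0.32 for miR-3200-5p. With 1 library left out the range was -0.22 to 0.069 for miR-331-5p, -0.61 to 0.94 for miR-3200-5p, -1.27 to 0.43 for miR-203a-5p, -0.61 to 0.46 for miR-21-5p, -0.033 to 0.20 for miR-221-3p, -0.29 to 0.41 for miR-27a-3p, -1.09 to 0.39 for miR-1260b, -1.10 to 0.80 for let-7a-5p, -0.70 to 0.22 for miR-16-5p, -0.13 to 0.099 for miR-30b-5p, -0.52 to 0.49 for miR-1248, -0.056 to 0.30 for miR-142-3p and -0.83 to 0.63 for miR-9-5p.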
